A study of Mus musculus with 6 samples.

Results

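The genes described here are 10 feedback inhibitors of mitogen-activated protein kinase signalling: the dual-specificity phosphatase genes Dusp1, Dusp2, Dusp4, Dusp5, Dusp6, Dusp10 and Dusp16, the Sprouty genes Spry1 and Spry2, and Spred1. They were taken by name from a table of 18341 genes. All 10 were listed there, and 9 of them, all but Spry1, reached the mean of 1 CPM that was required for testing. Expression had been measured by RNA sequencing in monocytes sorted from tumours that B16.F10 cells, a pigmented mouse melanoma line, formed under the skin of C57BL/6 mice. In 3 libraries the injected cells overexpressed BAFF, the B cell activating factor, and in 3 libraries they were control cells. All tumours were taken 13 days after injection. The comparison asks how BAFF made by tumour cells changes the transcripts of tumour monocytes. Nothing in the labels tells if each library is its own mouse, if the BAFF line is a single clone or what the control cells carry. The p-values therefore cover only the samples at hand. On the deposited scale they rest on the spread of genes of like level and not on the gene's own spread.

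In mitogen-activated protein kinase signalling, growth factor, cytokine and Toll-like receptors start chains of kinases that end in ERK, JNK or p38. Dual-specificity phosphatases switch these last kinases off by removing phosphate from both a threonine and a tyrosine. Several of the phosphatase genes are transcribed in response to the same kinases, which makes them a negative feedback. Sprouty and Spred proteins act further up and restrain the step from receptors and Ras to Raf. In monocytes and macrophages, Dusp1 is best known for limiting p38 and JNK activity, and with it cytokine production, after microbial stimuli.

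The promoters are shown for Dusp1, Dusp5 and Dusp16, the members that were higher in BAFF tumours after scaling by median-of-ratios size factors (given below). RefSeq windows on build GRCm38.p6 were matched by symbol for 9 of the 10 genes, not for Dusp4. Each sequence is the 250 bases before the annotated start, read 5′ to 3′ on the strand of the gene. They lie at chr17:26508473-26508722 (minus strand) for Dusp1, chr19:53528895-53529144 (plus strand) for Dusp5 and chr6:134792629-134792878 (minus strand) for Dusp16. Capitals mark TGACG, the core of the cyclic AMP response element, on either strand, the whole element TGACGTCA, and CArG boxes, the letters bound by serum response factor.
Dusp1: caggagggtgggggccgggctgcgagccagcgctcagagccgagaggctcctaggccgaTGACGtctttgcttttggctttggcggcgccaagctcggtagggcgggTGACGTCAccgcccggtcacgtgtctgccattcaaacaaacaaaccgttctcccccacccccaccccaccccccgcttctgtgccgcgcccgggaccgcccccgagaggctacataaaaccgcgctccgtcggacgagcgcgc
Dusp5: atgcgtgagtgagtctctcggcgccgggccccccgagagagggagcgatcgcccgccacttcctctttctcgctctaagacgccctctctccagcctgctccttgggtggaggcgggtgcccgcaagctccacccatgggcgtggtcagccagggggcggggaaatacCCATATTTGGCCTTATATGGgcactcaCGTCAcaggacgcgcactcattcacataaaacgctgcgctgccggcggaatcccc
Dusp16: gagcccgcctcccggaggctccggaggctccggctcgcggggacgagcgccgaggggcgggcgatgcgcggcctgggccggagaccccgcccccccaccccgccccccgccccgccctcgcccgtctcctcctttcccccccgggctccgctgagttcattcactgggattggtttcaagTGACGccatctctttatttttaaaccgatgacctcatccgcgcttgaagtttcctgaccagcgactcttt

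The Dusp1 window held the whole palindrome TGACGTCA once, 143 bases before the start, and a further TGACG core 191 bases before it. The whole palindrome was found in 1.56% of 32536 distinct mouse windows of the same length. The Dusp5 window held a pair of adjoining CArG boxes, CCATATTTGG and CCTTATATGG, which begin 82 and 72 bases before the start, and 1.48% of windows held at least 1. The TGACG core, which the palindrome contains on both strands, was present in 3 of the 9 windows, those of Dusp1, Dusp5 and Dusp16, against 17.9% of all windows. The EGR letters GCGGGGGCG were found in the Dusp2 window alone (2.597% of all windows). An NF-kB-like pattern, GGGA and CC with any 4 bases between them, was found in 5 of 9, those of Dusp1, Dusp5, Dusp6, Spry1 and Spry2, against 17.7% of all windows. The AP-1 letters TGANTCA and the ETS letters CCGGAAG were in 0 of the 9 windows, against 6.73% and 6.95% of all windows. Both strands were searched, and the motifs were chosen after the expression values had been seen. A match describes letters and shows no binding.

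The libraries differed in depth and in how much of it fell on the listed genes. From the step between low values, 1 CPM stood for 4.72 to 27.6 reads. The listed genes held 61.1% to 66.1% of the total in the BAFF libraries, 65.6% in control library 1, and 50.2% and 39.8% in control libraries 2 and 3, which stand apart. An entry that GENCODE M21 annotates as ribosomal RNA stood at 27016 and 43052 CPM in these 2 libraries, at 299 CPM in control library 1 and at 693 to 5880 CPM in the BAFF libraries, and its part in the results on the deposited scale was not tested. Of the monocyte and macrophage markers all 12 were present. They summed to 10586 to 12347 CPM in the BAFF and 5962 to 11239 CPM in the control libraries. After median-of-ratios scaling these sums were 9904 to 10817 and 7031 to 8897 CPM, without overlap. Their part in the values of the members was not tested. The 12 melanoma markers summed to 88.0 to 182 CPM in the BAFF and 439 to 763 CPM in the control libraries, and none was at 0 in every library. In such bulk samples fewer cells of a type and less RNA per cell cannot be told apart. The deposited scale carries these differences (over the tested genes the median log2 fold change was 0.23). For the 10 members the fold changes after median-of-ratios scaling, where that median was 0.01, therefore stand beside the deposited ones. Several of the other named genes are given on a single scale.

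Among the 9 tested genes, Dusp16 was the 1 that passed on the deposited scale, and it was higher in BAFF tumours (limma-trend, Benjamini-Hochberg adjusted p under 0.05), where 1.81% of the 12824 tested genes passed as higher and 3.5% as lower (5.31% in either direction). After median-of-ratios scaling 4 of the 9 passed. Dusp16, Dusp5 and Dusp1 were higher, where 7.18% of all tested genes passed as higher, and Dusp4 was lower, where 9.91% passed as lower (17.1% in either direction). The groups did not overlap for 2 of the 9 on the deposited scale, both higher, where 11.4% of all tested genes were separated as higher and 6.6% as lower. After scaling they did not overlap for 4 of the 9, where 35.2% of all tested genes were separated. The median log2 fold change of the 9 was 0.38 on the deposited scale and 0.14 after scaling, beside 0.23 and 0.01 over all tested genes. The plots of levels by library show that the 10 genes did not all move one way.

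**Figure D1:**
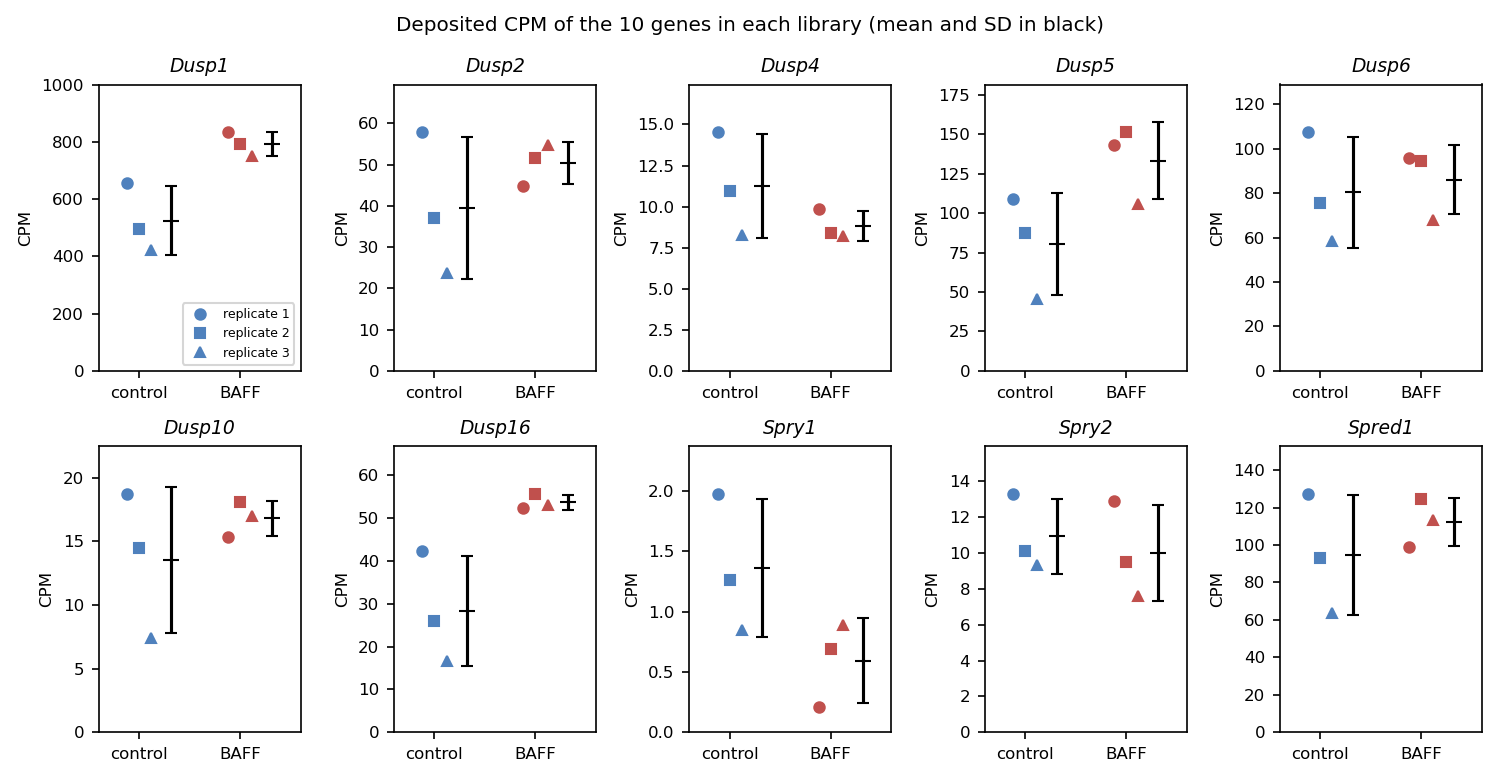
Deposited CPM (vertical axes, each from 0) of the 10 genes in the 3 control and 3 BAFF libraries, with symbols for the replicate number and the mean ± SD in black. Dusp1 and Dusp16 are higher in every BAFF library than in any control library, and control library 1 lies above control libraries 2 and 3 for each gene.

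The first group by role holds the phosphatases that act mainly on JNK and p38. Dusp16, whose protein is also called MKP-7 and dephosphorylates chiefly JNK and p38, stood at 52.2, 55.6 and 53.0 CPM in BAFF libraries 1, 2 and 3. In control libraries 1, 2 and 3 it stood at 42.2, 25.8 and 16.7 CPM. The groups did not overlap, and the control libraries were spread over a much wider range than the BAFF libraries. The means were 53.6 ± 1.74 and 28.2 ± 12.9 CPM (SD, n = 3 each), and the log2 fold change was 1.00 ± 0.32 (SE; limma adjusted p = 0.0377). After scaling the Dusp16 means were 28.9 ± 4.18 CPM in control and 49.1 ± 0.51 CPM in BAFF libraries (log2 fold change 0.75 ± 0.12, adjusted p = 0.00109). The scaled call held in each of the 6 fits that left out 1 library (adjusted p at most 0.00726), whereas the deposited call held in 1 of 6, that without control library 1, and reached an adjusted p of 0.367 without BAFF library 2. In the deposited fit without control library 1, 4615 of the 12824 tested genes passed as higher. Without control libraries 2 and 3 together, which leaves 1 control whose spread is assumed to be that of the BAFF group, the deposited fold change was 0.34 (adjusted p = 0.251) and the scaled one 0.54 (adjusted p = 0.0467).

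Dusp1, which encodes MKP-1, an immediate early nuclear phosphatase for p38 and JNK, stood at 834, 794 and 751 CPM in BAFF libraries 1, 2 and 3 and at 657, 497 and 422 CPM in control libraries 1, 2 and 3. Every BAFF library was above every control library, a separation seen in the higher direction for 11.4% of all tested genes. The log2 fold change of 0.62 ± 0.32 (SE) on the deposited scale did not pass (limma adjusted p = 0.332). It was 0.79 and passed without control library 1 (adjusted p = 0.00861), where 4615 of the 12824 tested genes passed as higher. Without control libraries 2 and 3 it was 0.27. After scaling the Dusp1 means were 566 ± 57.8 CPM in control and 726 ± 46.8 CPM in BAFF libraries, and the log2 fold change of 0.36 ± 0.11 was just inside the threshold (adjusted p = 0.0486), and the groups still did not overlap, as for 17.3% of all tested genes. That call held in 1 of the 6 fits with 1 library left out, without control library 3, and was lost in the others (adjusted p at most 0.17, without BAFF library 1). It was also lost with upper-quartile factors (adjusted p = 0.0831), with no filter on low values (0.0714) and without control libraries 2 and 3 together (0.124). Dusp1 is itself an early response gene. The 16 genes of a cell dissociation and early response list, which does not hold Dusp1, summed to 6629 to 6922 CPM in the BAFF and 3419 to 5511 CPM in the control libraries. After scaling the sums were 5987 to 6476 and 4349 to 5102 CPM. Their part in the Dusp1 value was not tested.

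Dusp10 encodes MKP-5, which also acts on JNK and p38, and it stood at 15.3, 18.1 and 17.0 CPM in BAFF libraries 1, 2 and 3. In control libraries 1, 2 and 3 it stood at 18.7, 14.5 and 7.41 CPM, so that the groups overlapped. The log2 fold change was 0.38 ± 0.32 (limma adjusted p = 0.574), and 0.14 ± 0.15 after scaling (adjusted p = 0.557), with a 95% interval from -0.18 to 0.47. Without control library 3 the deposited value was 0.024. Without control library 1 it was 0.64 and passed (adjusted p = 0.0235), where 4615 of the 12824 tested genes passed as higher.

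The nuclear phosphatases that act on ERK did not share a direction after scaling. Dusp5, which is specific for ERK and holds it in the nucleus, stood at 143, 151 and 106 CPM in BAFF libraries 1, 2 and 3 and at 109, 87.5 and 45.5 CPM in control libraries 1, 2 and 3. BAFF library 3 and control library 1 overlapped on the deposited scale (log2 fold change 0.79 ± 0.32, limma adjusted p = 0.151). That value was 0.43 without control library 3 and 1.05 without control library 1, where it passed (adjusted p = 0.00011). In that last fit 4615 of the 12824 tested genes passed as higher. After scaling Dusp5 rose from 83.6 ± 14.6 to 122 ± 19.8 CPM (log2 0.54 ± 0.15, adjusted p = 0.0267), and BAFF library 3 at 98.8 CPM was just above control library 2 at 96.8 CPM. The scaled call held in 3 of the 6 fits with 1 library left out and was lost without BAFF library 1, BAFF library 2 or control library 3 (adjusted p at most 0.113). An antisense transcript is annotated over Dusp5 exons in GENCODE M21, and the library kit does not mark strand, so reads of both cannot be told apart.

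Dusp4, whose protein MKP-2 acts on ERK and JNK and whose transcript is a common readout of ERK activity in melanoma cells, moved the other way. It stood at 9.85, 8.37 and 8.19 CPM in BAFF libraries 1, 2 and 3 and at 14.5, 11.0 and 8.26 CPM in control libraries 1, 2 and 3. On the deposited scale the difference did not pass (log2 -0.29 ± 0.31, limma adjusted p = 0.654). Without control libraries 2 and 3, which leaves 1 control, the log2 fold change was -0.67 as deposited and -0.48 after scaling. The median over all tested genes in that deposited fit was -0.18. After scaling the control libraries lay close together, at 11.5, 12.1 and 12.3 CPM, and the BAFF libraries at 9.21, 7.34 and 7.67 CPM, without overlap, as for 17.8% of all tested genes in the lower direction. Dusp4 fell from 11.97 ± 0.45 to 8.07 ± 1.00 CPM on that scale (log2 -0.52 ± 0.14, adjusted p = 0.0239). The call held without BAFF library 1 or control library 1 and was lost without BAFF library 2, BAFF library 3, control library 2 or control library 3 (adjusted p at most 0.0991). Among all tested genes 3.5% passed as lower as deposited and 9.91% after scaling. Of the 11 melanoma markers tested, 10 fell in the same libraries on either scale, and after scaling their summed level was 82.4 to 170 CPM in the BAFF and 509 to 656 CPM in the control libraries. Their part in the Dusp4 value was not tested.

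Dusp2, which encodes the phosphatase PAC-1 of activated leukocytes, stood at 44.9, 51.6 and 54.9 CPM in BAFF libraries 1, 2 and 3 and at 57.9, 37.1 and 23.7 CPM in control libraries 1, 2 and 3. The highest value was that of a control library, and the groups overlapped. The log2 fold change was 0.43 ± 0.32 (limma adjusted p = 0.526) and 0.18 ± 0.12 after scaling (adjusted p = 0.345; 95% interval -0.08 to 0.45). The deposited value was 0.12 without control library 3 and turned to -0.20 without control libraries 2 and 3. Without control library 1 it was 0.74 and passed (adjusted p = 0.0063), where 4615 of the 12824 tested genes passed as higher.

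Dusp6, the cytoplasmic ERK phosphatase MKP-3, had overlapping ranges in the 2 groups. BAFF libraries 1, 2 and 3 held 95.7, 94.2 and 68.0 CPM and control libraries 1, 2 and 3 held 107, 75.4 and 58.2 CPM. The sign of its log2 fold change depended on the scale, 0.12 ± 0.32 as deposited (limma adjusted p = 0.855) and -0.13 ± 0.12 after scaling (adjusted p = 0.537; 95% interval -0.39 to 0.14). After scaling the control libraries differed little, at 84.7, 83.4 and 86.9 CPM, and the BAFF libraries, at 89.5, 82.6 and 63.7 CPM, lay on both sides of them.

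**Figure D2:**
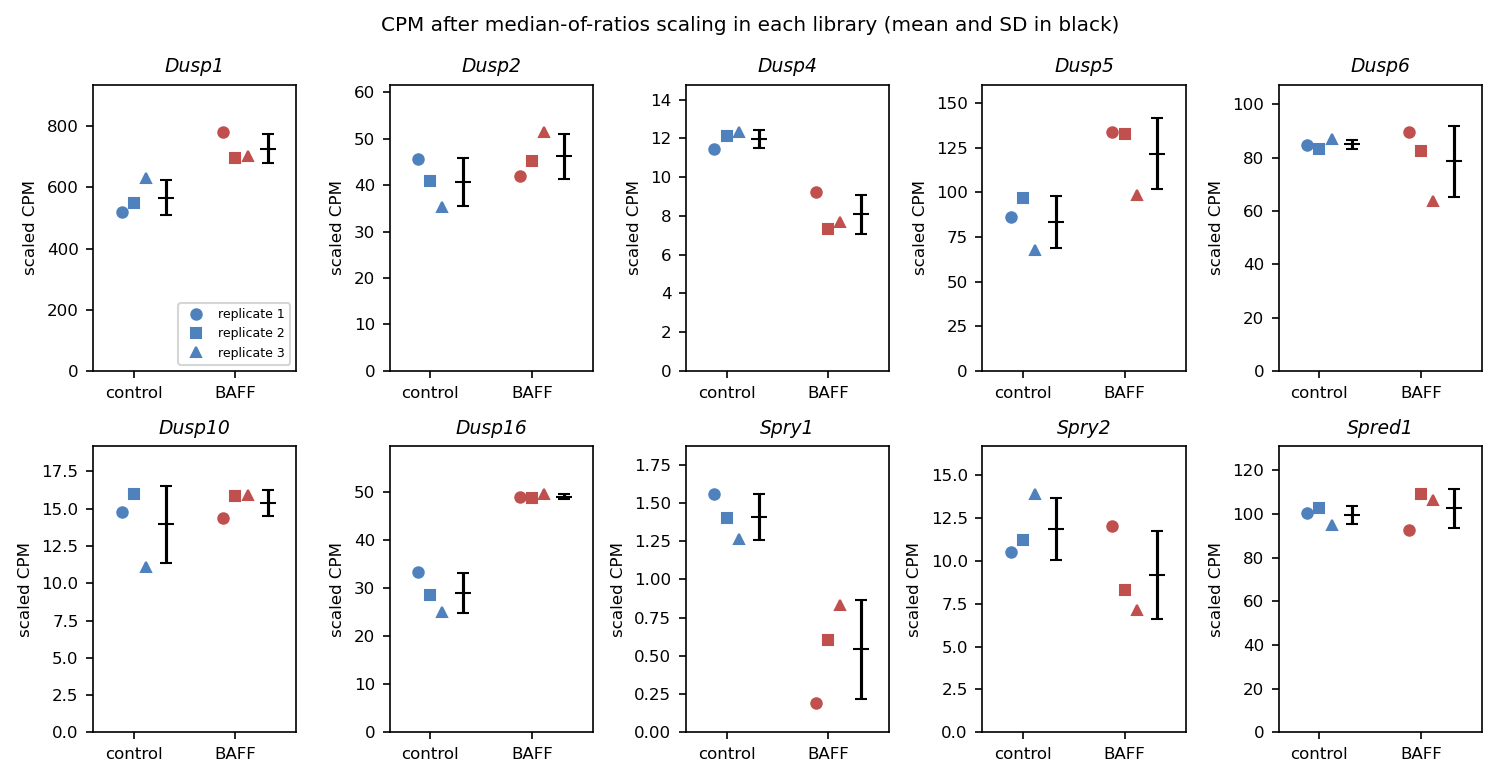
CPM after median-of-ratios scaling (vertical axes, each from 0) of the same 10 genes, drawn as in the plot of deposited CPM. The BAFF and control libraries are apart for Dusp16, Dusp1 and Dusp5 (higher in BAFF tumours) and for Dusp4 and Spry1 (lower), and overlap for the others.

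Of the adaptor-like inhibitors, none of the tested pair passed on either scale. Spred1, which recruits the Ras inhibitor neurofibromin to the membrane, stood at 98.8, 125 and 113 CPM in BAFF libraries 1, 2 and 3 and at 127, 93.0 and 63.7 CPM in control libraries 1, 2 and 3. Its log2 fold change was 0.29 ± 0.32 (limma adjusted p = 0.661), and 0.04 ± 0.10 after scaling (adjusted p = 0.824), with a 95% interval from -0.17 to 0.26, the narrowest of the 9. The deposited value was 0.038 without control library 3 and 0.53 without control library 1, where it passed (adjusted p = 0.0489). In that last fit 4615 of the 12824 tested genes passed as higher. Spry2, which inhibits Ras and Raf activation downstream of growth factor receptors, stood at 12.9, 9.46 and 7.60 CPM in BAFF libraries 1, 2 and 3 and at 13.3, 10.1 and 9.31 CPM in control libraries 1, 2 and 3. Its log2 fold change was -0.13 ± 0.31 (adjusted p = 0.845) and -0.36 ± 0.19 after scaling (adjusted p = 0.214; 95% interval -0.77 to 0.04).

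Spry1, the related Sprouty gene, was scarce and was not tested with the others. It stood at 0.207, 0.689 and 0.888 CPM in BAFF libraries 1, 2 and 3, or 2, 19 and 9 reads, and at 1.98, 1.26 and 0.847 CPM in control libraries 1, 2 and 3, or 54, 9 and 4 reads. BAFF library 1 was under the floor of 3 reads, which is 0.311 CPM there and covers counting error only. After scaling the values were 0.19, 0.60 and 0.83 CPM against 1.56, 1.40 and 1.26 CPM. The groups did not overlap on that scale, as for 17.8% of all tested genes in the lower direction. In fits with no filter on low values its log2 fold change was -0.56 on the deposited scale (limma adjusted p = 0.187) and -0.66 after scaling (adjusted p = 0.0438). Both are understated by the pseudocount of 1. In these fits 623 and 1447 of the 18341 genes passed as lower. The scaled fit with no filter was chosen after seeing the data. As for Dusp5, a transcript is annotated on the opposite strand over Spry1 exons, so reads of both cannot be told apart.

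**Figure D3:**
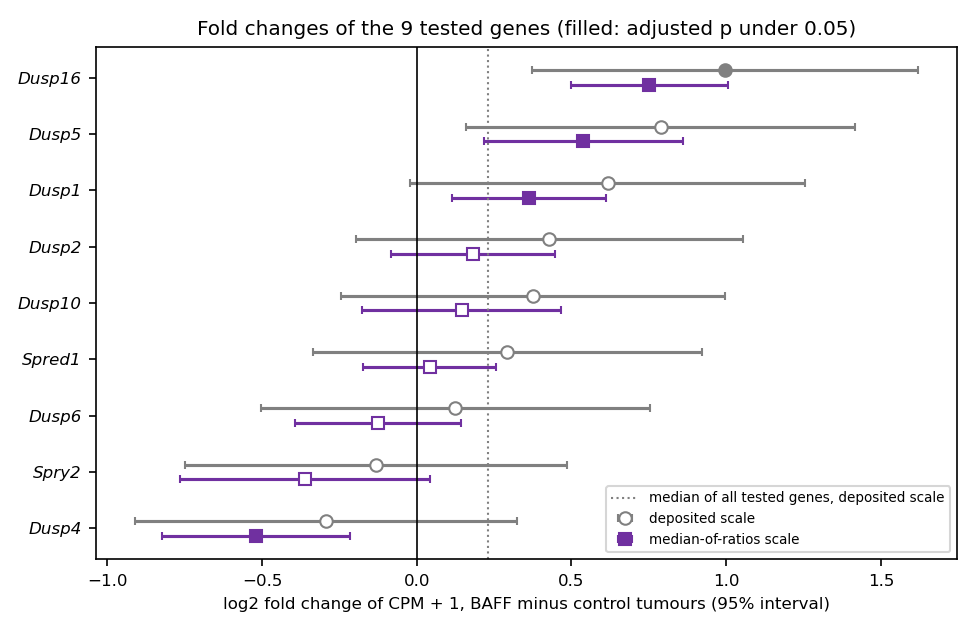
Log2 fold changes of CPM + 1, BAFF minus control tumours, with 95% intervals for the 9 tested genes on the deposited scale (grey circles) and after median-of-ratios scaling (purple squares). Filled symbols passed at an adjusted p under 0.05: Dusp16 on both scales, and Dusp5, Dusp1 and Dusp4 on the median-of-ratios scale. The dotted line is the median of all tested genes on the deposited scale, 0.23.

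The unequal change of the members can be read inside each library, where no scaling enters. The ratio of Dusp16 to Dusp4 CPM was 5.31, 6.64 and 6.47 in BAFF libraries 1, 2 and 3 and 2.90, 2.36 and 2.03 in control libraries 1, 2 and 3. The ratio was thus higher in each BAFF library than in any control library, by 2.54-fold between the geometric means. The exact permutation test over the 6 libraries gave a two-sided p of 0.1, the smallest that 3 against 3 allow. The ratio of Dusp1 to Dusp4 was 84.7, 94.8 and 91.7 in BAFF and 45.2, 45.3 and 51.2 in control libraries, a 1.91-fold difference, and that of Dusp5 to Dusp4 was 2.17-fold higher (exact permutation p = 0.1 for each). These pairs were chosen after their values were seen. Of the 8 other tested members, 7 had a ratio to Dusp4 that was higher in BAFF tumours without overlap, all but Spry2, and 0 had one that was lower, where 61.2% of all tested genes were higher and 5.56% lower. Of the 8 ratios to Dusp16, 6 were lower in BAFF tumours without overlap, where 79.5% of all tested genes were lower and 0.25% were higher.

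**Figure D4:**
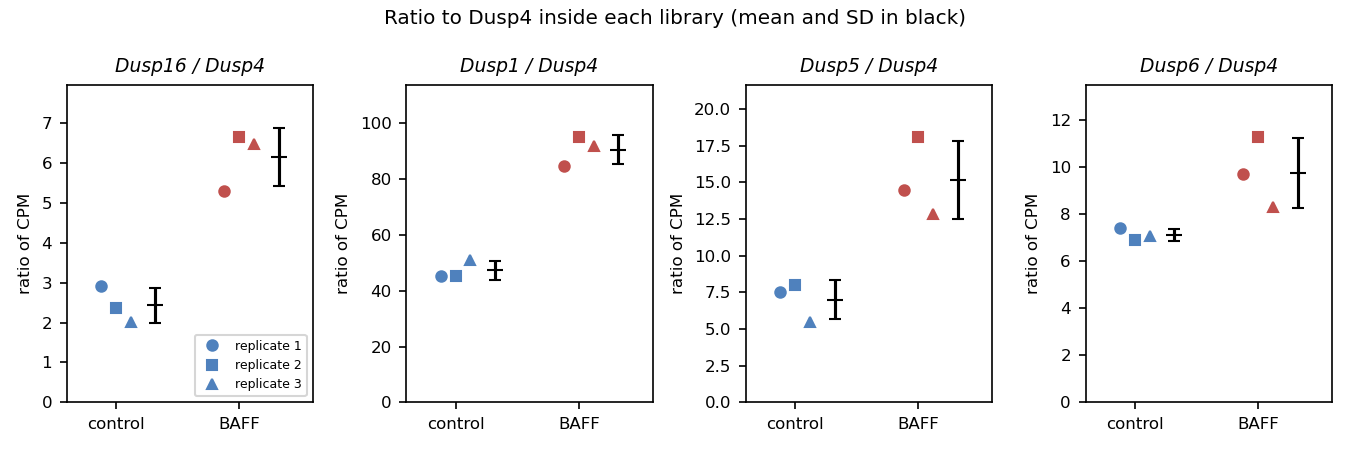
Ratio of the deposited CPM of Dusp16, Dusp1, Dusp5 and Dusp6 to that of Dusp4 inside each library (vertical axes from 0), with the mean ± SD of 3 libraries in black. In each panel every BAFF library lies above every control library, with Dusp16 at 5.31 to 6.64 against 2.03 to 2.90.

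Per length of the longest coding transcript in the GENCODE M21 basic set, Dusp1 was the most abundant of the 10, at a mean of 331 CPM per kb over the 6 libraries (range 212 to 419). Dusp5, Dusp6, Dusp2 and Spred1 followed at 43.2, 29.7, 27.8 and 17.2 CPM per kb, with ranges over the libraries that overlapped from each to the next. Dusp16, Dusp10, Spry2 and Dusp4 stood at 8.02, 5.43, 5.0 and 3.66 CPM per kb, again with overlapping ranges, and Spry1 was last at 0.353 CPM per kb. By group, Dusp2 was above Dusp6 in BAFF (31.2 and 30.7) and below it in control libraries (24.5 and 28.7), and Spry2 was below Dusp10 in BAFF (4.78 and 6.02) and above it in control libraries (5.22 and 4.85 CPM per kb). The range of Dusp1 lay above those of all the others, and that of Spry1 below them.

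The genes whose scaled log2 levels followed Dusp16 most closely over the 6 libraries were Nlrp3 (Pearson r = 0.997), Arl8b (0.996) and Ube2j1 (0.996). This is a description over 6 points in 2 groups, among genes averaging at least 5 CPM. Nlrp3, the sensor of an inflammasome, had a scaled log2 fold change of 0.44 (limma adjusted p = 0.00781) and Ube2j1, a ubiquitin-conjugating enzyme of the endoplasmic reticulum, 0.57 (adjusted p = 0.00277). Arl8b, a small GTPase of lysosomes, had one of 0.17 and did not pass (adjusted p = 0.217). Among all tested genes 7.18% passed as higher after scaling. On the deposited scale neither Nlrp3, Ube2j1 nor Arl8b passed (limma adjusted p = 0.241, 0.125 and 0.536). All were picked for following Dusp16, whose groups differed in these same libraries, so a group difference in them is no separate result.

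The rest of the family was described from a list of 18 other DUSP, Sprouty and Spred genes, of which 15 were in the table and 12 were tested. On the deposited scale 0 of the 12 passed in limma. After scaling 1 passed as higher and 2 as lower, with a median of -0.12, where 7.18% of all tested genes passed as higher and 9.91% as lower. Dusp3, which encodes the small phosphatase VHR, stood at 134, 127 and 120 CPM in BAFF libraries 1, 2 and 3 and at 131, 77.5 and 59.7 CPM in control libraries 1, 2 and 3, and was the gene that rose after scaling (log2 0.33 ± 0.10, adjusted p = 0.0494). Dusp19 fell (log2 -0.66 ± 0.19, adjusted p = 0.0316) on that scale from a mean of 2.79 CPM in control to 1.40 CPM in BAFF libraries. Dusp7, an ERK phosphatase close to Dusp6, fell as well (log2 -0.65, adjusted p = 0.00383), and was named after its value was seen.

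The kinase cascades were read from lists that hold kinases, adaptors and Ras activators, beside shares over all tested genes of 1.81% higher and 3.5% lower as deposited and 7.18% and 9.91% after scaling. Of 24 tested genes of the ERK cascade 1 fell and 0 rose on the deposited scale, and 1 fell and 1 rose after scaling. The gene that rose was Rasgrp4, which encodes a Ras activator of myeloid and mast cells (log2 0.59, adjusted p = 0.0294), named after its value was seen. The gene that fell on either scale was Rasgrp3, which encodes an activator of Ras and Rap, at 4.15, 2.97 and 2.27 CPM in BAFF and 19.9, 13.8 and 8.26 CPM in control libraries 1, 2 and 3 (log2 -1.81 ± 0.31, limma adjusted p = 3.25e-06). Its groups did not overlap, as for 6.6% of all tested genes in the lower direction. Of the tested cell markers, 10 of 11 of melanoma and 3 of 5 of B and plasma cells were lower on either scale. Their part in the Rasgrp3 value was not tested. Of 21 tested genes of the JNK and p38 cascades 0 passed on the deposited scale, and 3 rose and 1 fell after scaling. Mapkapk3, a kinase activated by p38, rose after scaling (log2 0.59 ± 0.11, adjusted p = 0.00303). The others, named after their values were seen, were Map3k2 (log2 0.39) and Mapkapk2 (0.38), which rose, and Map3k4 (-0.50), which fell. By contrast Mapk13, a p38 isoform gene near the limit of detection, did not pass (adjusted p = 0.112). The ERK gene Mapk3, the JNK gene Mapk8 and the p38 gene Mapk14, chosen after their values were seen, had scaled log2 fold changes of 0.04, 0.28 and -0.05 (limma adjusted p = 0.889, 0.174 and 0.862).

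Genes commonly read as output of ERK moved both ways. Of 22 tested, 3 rose and 0 fell on the deposited scale, and 4 rose and 3 fell after scaling, with medians of 0.42 and 0.18. Among all tested genes 1.81% passed as higher and 3.5% as lower as deposited, and 7.18% and 9.91% after scaling. Plaur, the urokinase receptor, stood at 388, 403 and 360 CPM in BAFF and at 200, 165 and 160 CPM in control libraries 1, 2 and 3 (log2 1.13 ± 0.32, limma adjusted p = 0.0135). Ier3, an early response gene, rose by a log2 fold change of 1.01 ± 0.32 (adjusted p = 0.0386) and Fosl1, which encodes the AP-1 subunit FRA1, by 1.12 ± 0.30 (adjusted p = 0.0075) from levels of 0.212 to 1.54 CPM in control libraries. The fourth to rise after scaling was Fosl2, another AP-1 subunit gene (log2 0.71), and those that fell were Ccnd1 (cyclin D1, log2 -1.17), Dusp7 and Phlda1 (log2 -0.61), all named after their values were seen. Ier3 and several other genes of this list are also in the cell dissociation and early response list. The sums of that list were higher in the BAFF libraries without overlap on both scales. The melanoma markers were lower in the same libraries. The part of either in these values was not tested.

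**Figure D5:**
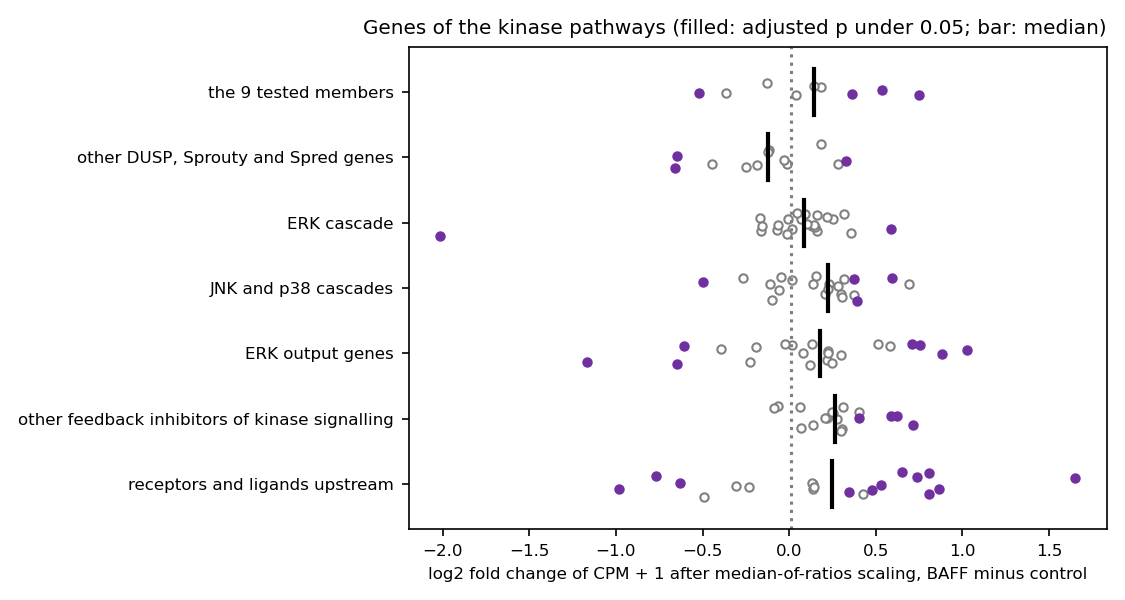
Log2 fold changes after median-of-ratios scaling, BAFF minus control tumours (horizontal axis), of the 9 tested members and of the tested genes of 6 pathway lists, each point a gene at a random height within its list. Filled points passed at an adjusted p under 0.05, bars are the medians of the lists, and the dotted line is the median of all tested genes, 0.01.

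Upstream, 20 receptor and ligand genes were tested, of which 5 rose and 0 fell on the deposited scale and 9 rose and 3 fell after scaling (medians 0.50 and 0.25). Among all tested genes 1.81% passed as higher and 3.5% as lower as deposited, and 7.18% and 9.91% after scaling. Csf2rb, the shared beta chain of receptors for GM-CSF and related cytokines, stood at 434, 400 and 365 CPM in BAFF and at 255, 189 and 144 CPM in control libraries 1, 2 and 3 (log2 1.06 ± 0.32, limma adjusted p = 0.0254). Tlr2, a receptor for bacterial lipoproteins, stood at 485, 545 and 547 CPM against 396, 207 and 193 CPM (log2 1.06 ± 0.32, adjusted p = 0.0256). The ErbB ligand gene Nrg1 (log2 1.81 ± 0.31, adjusted p = 3.06e-06) and the receptor kinase gene Flt3 (1.03 ± 0.30, adjusted p = 0.0192), a dendritic cell marker as well, rose from lower levels. The groups did not overlap for any of these 4, which were named for the smallest p. On the deposited scale 11.4% of all tested genes were separated as higher. Vegfa was the fifth that rose on the deposited scale (log2 0.99, adjusted p = 0.0440), and Igf1, Fgfr1 and Met were the genes that fell after scaling (log2 -0.98, -0.77 and -0.63), named after their values were seen.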

How the data were processed

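The authors deposited 1 table of CPM, reads counted relative to the library total, for 6 libraries; the unit was read from the values, since most low values are multiples of a step particular to the library (82.03% to 87.2% within 0.02 of a whole multiple, for values under 2 CPM), too few for a count model. Partek, STAR 2.4.1d and Bowtie2 2.2.5 are named without roles per the submitters' processing notes; the genome build, annotation and counting rule were not given in the sources used here. Groups and numbers come from the sample titles; 1 control column, misspelled by a letter, was taken as control 2, and a source label naming the melanoma line was set aside for the series design, which names sorted monocytes.

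Genes averaging at least 1 CPM (12824) were tested with limma-trend (limma 3.58.1, R 4.3.3) on log2(CPM + 1), BAFF minus control, with Benjamini-Hochberg adjustment over all of them and a threshold of 0.05. The pseudocount of 1 understates changes of low genes. On the deposited scale limma estimated an infinite prior df, so an SE there reflects genes of like level and not the gene's own spread. Median-of-ratios (RLE) factors were computed on the tested genes and ranged from 0.67 to 1.27. The fit was tried on simulated data. These had no shift of a whole library such as the control libraries show, so the trial does not cover that case. Replicates differed beyond sampling noise (smallest chi-square per degree of freedom 8.15). Exact permutation tests used SciPy 1.17.1.

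Named were all 10 members, from each pathway list up to 4 members that passed or else the 2 with the smallest p, and the 3 genes most like a member that passed on the deposited scale; other names are marked as chosen after their values were seen. The 2 most abundant members of each marker list were named too. The members and lists were chosen with earlier results of these data known.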

Additional observations from a re-analysis of the deposited data

How the results depend on the processing

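Scaling and the choice of libraries set how many members passed. Against 1 of 9 on the deposited scale, RLE gave 4, upper-quartile factors 3, RLE with a robust prior 4, RLE with no filter 4 (2 higher, and Dusp4 and Spry1 lower) and keeping genes above 5 CPM on average 0, where Dusp16 had an adjusted p of 0.0506 (limma; 1265 of all genes in that fit had an unadjusted p under 0.05). Leaving out 1 library gave 0 to 6 members on the deposited scale and 1 to 3 after RLE. The 6, all higher, came without control library 1, where 4615 of the 12824 tested genes passed as higher and 577 as lower and where Dusp2, Dusp10 and Spred1 also passed (log2 0.74, 0.64 and 0.53) and Dusp6 stood at 0.35. The log2 fold changes of Dusp16, Dusp1 and Dusp5 were above 0 and that of Dusp4 below 0 in all 25 settings tried. The robust prior, the replicate number as a block and the filter on low values leave a fold change as it is, so these settings could not turn a sign. On the deposited scale the median over all tested genes was itself above 0, at 0.23. How many of all genes kept their sign was not counted.

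Over all genes, against 681 on the deposited scale, RLE gave 2192, upper-quartile factors 2080, RLE with a robust prior 2210, RLE with no filter 2329 and the 5 CPM limit 316. Of the 681, 232 were higher and 449 lower, against 921 and 1271 after RLE. Leaving out 1 library gave 167 to 5192 on the deposited scale, the 5192 without control library 1, and, after RLE, 1505, 1334 and 1806 without BAFF library 1, 2 and 3 and 1821, 1723 and 1816 without control library 1, 2 and 3. Without control libraries 2 and 3 together the counts were 1861 as deposited and 1122 after RLE. RLE with no filter, and leaving out these 2 libraries, were chosen after seeing the data.

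The replicate number as a block gave 0 members on the deposited scale, where Dusp16 had an adjusted p of 0.0818 (1834 of all genes had an unadjusted p under 0.05), and 3 after RLE, where Dusp1 had one of 0.104; over all genes the RLE fit with the block gave 1940. In the RLE fit with the block Dusp5 had an adjusted p of 0.00685 (limma). Same-numbered libraries did not deviate together on the deposited scale (correlations -0.06, 0.06 and -0.04). With 3 libraries per group these correlations cannot settle if the number is a pairing.

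Members that did not pass changed sign. Dusp6 stood at -0.13 after RLE, with or without the block, the robust prior or the filter, at -0.17 with upper-quartile factors, at -0.14 and -0.11 with RLE without control library 2 and 3, between -0.23 and -0.08 in the fits with 1 library left out that turned it, and at -0.33 (deposited) and -0.13 (RLE) without control libraries 2 and 3. Spred1 turned to -0.0066 with upper-quartile factors and to -0.0056 with RLE without BAFF library 2, Spry2 to 0.031 without BAFF library 3 and to 0.0077 without control library 1, and Dusp10 to -0.0045 with RLE without control library 3. Without control libraries 2 and 3 Dusp2, Dusp10 and Spred1 turned to -0.20, -0.15 and -0.19 on the deposited scale, and Spry2 stood at -0.41. The cause of these changes was not tested. Control library 3 held 39 reads of Dusp4 and 35 of Dusp10, which limits the precision of both.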

Other observations

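Feedback inhibitors of kinase signalling outside the DUSP and Sprouty families were read from a list of their own. Of 18 tested, 1 rose and 0 fell on the deposited scale in limma, and 4 rose and 0 fell after scaling, with medians of 0.50 and 0.27 beside 0.23 and 0.01 over all tested genes. Over all tested genes 1.81% passed as higher as deposited and 7.18% after scaling. Errfi1, which encodes the inhibitor MIG6 of ErbB receptors, stood at 127, 108 and 102 CPM in BAFF and 105, 50.1 and 34.7 CPM in control libraries 1, 2 and 3 (log2 0.96 ± 0.32, adjusted p = 0.0499; 0.71 after scaling, adjusted p = 0.00988). The others that rose after scaling, named after their values were seen, were Socs3, the inhibitor of cytokine receptor signalling induced by STAT3 (log2 0.62), the phosphatase gene Ptpn2 (0.59) and Ppp2ca, the catalytic subunit of protein phosphatase 2A (0.40). Socs3 is also in the cell dissociation and early response list, whose part in its value was not tested.

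Markers of other cells that a monocyte sort could hold were read from the same fit. The shares over all tested genes were 1.81% higher and 3.5% lower as deposited, and 7.18% and 9.91% after scaling. The markers of monocytes and macrophages had 0 of 12 tested members called on the deposited scale and 4 higher and 1 lower after scaling; Lyz2 and Cd14 were the most abundant, at 5324 and 1330 CPM in BAFF and 3793 and 722 CPM in control libraries on average. Melanoma markers were led by Dct (31.1 to 59.5 against 167 to 264 CPM) and Tyrp1 (19.9 to 41.2 against 99.1 to 164 CPM). Neutrophil markers had 4 of 8 higher on the deposited scale and 2 after scaling. The most abundant were Csf3r, which passed only after scaling, and Mmp8, which passed on neither scale (86.3 and 55.5 against 53.9 and 38.6 CPM). T and NK cell markers had 0 of 9 called on either scale, with Gzmb and Cd8a the most abundant (7.17 and 2.84 against 3.93 and 3.16 CPM). B and plasma cell markers had 3 of 5 lower on either scale, with Ighm and Igha the most abundant (28.7 and 6.04 against 34.5 and 17.9 CPM). Dendritic cell markers had 2 of 9 higher on either scale. The most abundant were Bst2, which passed on neither scale, and Cd209a, which rose on both (58.9 and 18.6 against 65.5 and 7.63 CPM). Fibroblast and endothelial markers had 0 of 11 called on the deposited scale and 2 higher and 1 lower after scaling. The most abundant, Col3a1 and Col1a2, passed on neither scale (15.9 and 13.1 against 36.4 and 32.3 CPM). Their control means rest on control library 1. In control libraries 1, 2 and 3 Col3a1 stood at 91.9, 6.74 and 10.6 CPM and Col1a2 at 74.7, 13.2 and 9.10 CPM. Of the dissociation and early response genes 3 of 16 rose on the deposited scale and 6 after scaling. The most abundant were Fos, which passed on neither scale, and Atf3, which passed only after scaling (958 and 676 against 670.3 and 428 CPM).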
